A study of Mus musculus with 3 samples.

Results

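Collagen genes and Sparc were examined in macrophages cultured from mouse bone marrow, cells that are not known as a main source of fibrillar collagen. The set was chosen by gene symbol: every protein-coding gene whose symbol reads Col, digits, a, digits, plus Sparc, which gave 45 genes, 44 collagen genes and Sparc, of 55536 annotated genes in all. The set was picked for study because of its levels and its spread between these libraries, so the levels and spreads below are a description and are not tests of that choice. All libraries belong to 1 group. Primary macrophages of strain C57BL/6J had lipid A, the membrane anchor of bacterial lipopolysaccharide, at 100 ng/ml for 12 hours, went without it for 12 hours after washing, and had it again at 100 ng/ml for 60 minutes. Total RNA of the cytosolic fraction was sequenced after removal of ribosomal RNA, from 1 µg of RNA in each of 3 biological replicates listed under the same donor entry. The labels leave out whether each culture had its own animal, so the spread between libraries may be technical in part, and neither sex nor age was recorded.

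Collagens are secreted proteins built as a helix of 3 chains, and the chains of 1 helix can be products of different genes. Fibrillar collagens (types I, II, III, V, XI, XXIV and XXVII) bear load in bone, skin and tendon, and fibroblasts, osteoblasts and related stromal cells are their main makers. Type IV forms the sheets of basement membranes, type VI forms beaded filaments around cells, and other families sit on fibrils, span membranes or form networks. Sparc (osteonectin) is a secreted protein that binds collagen and is made by the same stromal cells. Macrophages are better known for taking up and degrading collagen.

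What the collagen genes share at the sequence level is the Gly-X-Y repeat, a glycine codon followed by 2 codons for any residues, because only glycine fits inside the helix. The 3 collagen genes with the most counts are shown by a 90-base stretch of their spliced coding sequence from the GENCODE M21 transcripts, 5′ to 3′, with the glycine codon that opens each repeat in capitals. On build mm10 the stretches lie on the plus strand at chr11:94939451-94939939 (Col1a1), chr6:4512406-4515516 (Col1a2) and chr1:45323762-45325413 (Col3a1), spans that include introns. Each stretch holds 10 repeats in 30 codons.
Col1a1: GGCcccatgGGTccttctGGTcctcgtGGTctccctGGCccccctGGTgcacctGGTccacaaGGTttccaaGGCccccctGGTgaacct
Col1a2: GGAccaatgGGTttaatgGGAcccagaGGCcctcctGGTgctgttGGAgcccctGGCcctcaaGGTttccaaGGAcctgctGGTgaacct
Col3a1: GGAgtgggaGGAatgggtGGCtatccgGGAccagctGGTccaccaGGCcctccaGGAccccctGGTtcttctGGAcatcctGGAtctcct

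The longest unbroken run was 338 repeats in Col1a1, 339 in Col1a2 and 344 in Col3a1. At least 300 repeats were found in 9 of the 44 collagen genes, all fibrillar, and the median over the 44 was 58.5, with 23 the lowest. Sparc, which is no collagen, had 2. Shared sequence of this kind could let reads be assigned to the wrong gene, so the transcripts were searched for identical 50-base stretches. None was shared with another gene in 33 of the 45 genes, and in 42 the share of such stretches was under 1%. The highest share was 3.54%, in Col6a6, most of it with Col6a5.

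Most collagen genes were near or below the limit of these libraries. The 4 genes with the most counts, Col1a1, Col1a2, Col3a1 and Sparc, had almost all of them in replicates 2 and 3. Others with fewer counts, such as Col18a1 and Col4a2, did not. Expected counts of the 45 genes summed to 375 in replicate 1, 4649 in replicate 2 and 2265 in replicate 3. Scaled to the same total of counts on genes in each library (CPM, which corrects for depth and not for gene length), these were 7.38, 87.1 and 48.7. By TPM, which also corrects for transcript length, the sums were 1.20, 11.9 and 6.32, or 6.48 ± 5.36 (SD, n = 3). Replicate 1 was lowest and replicate 2 highest on each scale, and the highest library exceeded the lowest 9.93-fold by summed TPM. Without replicate 1, replicate 2 exceeded replicate 3 1.89-fold. In bulk RNA, fewer cells of a type and less RNA per cell cannot be told apart.

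The libraries held 46546422 to 53364168 expected counts on genes, so 3 counts corresponded to 0.0562 to 0.0645 CPM, the limit that a count of 0 allows. The macrophage label matched its markers: all 12 macrophage genes examined lay above 1 TPM, and their summed TPM was 8992, 6963 and 6813 in replicates 1 to 3. Libraries also differed in nuclear RNA: Malat1, Neat1 and Rn7sk, nuclear non-coding RNAs, summed to 27900, 27010 and 68710 TPM. Replicate 3 thus stood highest in nuclear RNA and replicate 1 stood apart in collagen RNA.

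Levels were tested against 1 TPM by limma, with adjustment over the 20685 genes above 0 TPM in a library. Of the 45 genes, 33 entered this test. None of the 33 was called above 1 TPM, beside 44.5% of all genes tested. Of the 33, 29 lay below, beside 50.4% of all genes tested. Col1a1, Col1a2, Col3a1 and Sparc were placed on neither side, and 12 were listed at 0 TPM in every library. Of those 12, 9 had no count at all and 3 (Col4a6, Col6a6 and Col9a2) had 1 or 2 counts in some library. The median TPM was 0.0267 over the 45 genes and 0.0767 over the 33 above 0 TPM in a library, beside 0.68 over all genes tested. At least 1 count in every library was seen in 24 genes, and in at least 1 library in 36.

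Spread between libraries was compared with counting error by a chi-square test on genes whose counts summed to 30 or more. Of 22 genes that reached this number, 18 varied beyond counting error, beside 69.3% of 13075 genes tested. Replicate 2 was highest by CPM in 16 of the 22, replicate 3 in 4 and replicate 1 in 2, beside 39.0%, 37.8% and 23.2% of all genes tested. Replicate 1 was lowest in 20 of the 22, or 90.9%, beside 42.9% of all genes tested. In 13 of the 22, replicate 1 held under 7% of the gene's CPM summed over libraries, beside 0.78% of all genes tested, 102 genes. These 13 genes had 0 to 8 counts in replicate 1, so they reached 30 counts through replicates 2 and 3. Their number beside that of all genes is a description and no test. The 7% line was drawn after the values were seen. The highest share inside it was 4.86% (Col4a1), and the lowest outside was 9.93% (Col4a5). None of the 22 was under the same line in replicate 2 or in replicate 3, where 58 and 30 of all genes tested were.

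**Figure D1:**
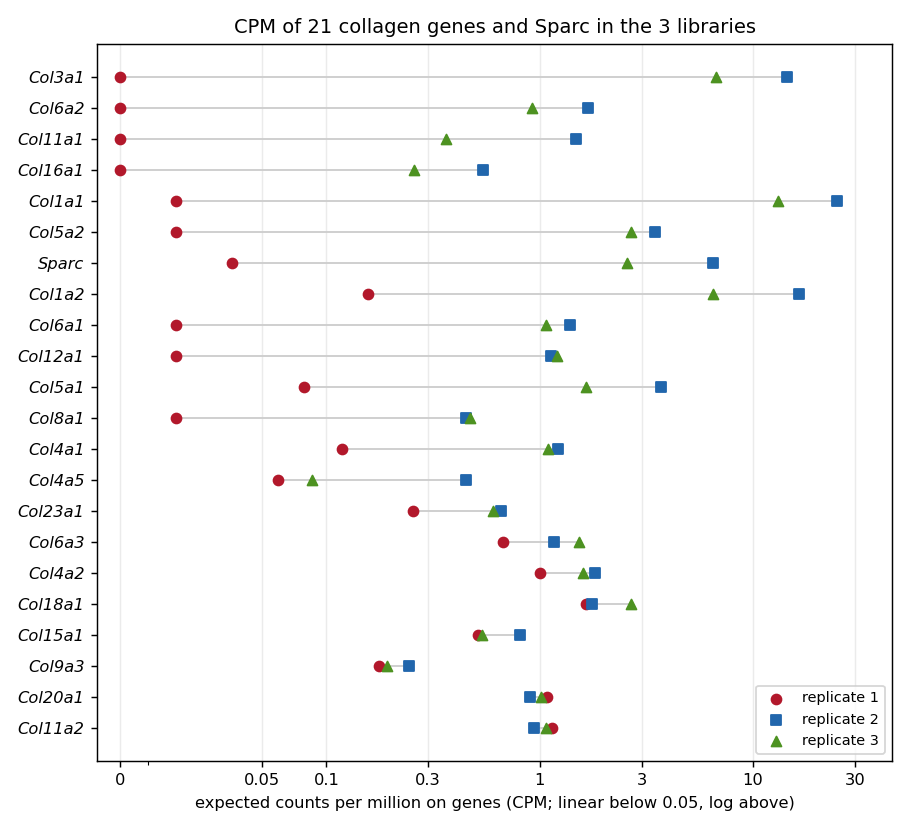
CPM of 21 collagen genes and Sparc with at least 30 counts in sum (rows, ordered by the share in replicate 1) on an axis that is linear below 0.05 and logarithmic above; each symbol is 1 library. Replicate 1 lies far to the left of replicates 2 and 3 for the upper 13 genes, and within about the range of the others for Col18a1, Col15a1, Col9a3, Col20a1 and Col11a2.

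The chains of type I collagen, the main protein of bone and tendon, had the most counts of the set when summed over the libraries. Col1a1 (chr11:94936224-94953042, plus strand, mm10), the alpha 1 chain, had 1, 1325 and 612 expected counts in replicates 1, 2 and 3, or 0, 2.53 and 1.28 TPM. Replicate 1 held 0.0518% of its CPM. The mean level was 1.27 ± 1.27 TPM (SD, n = 3), so the spread was as large as the mean, and replicate 2 exceeded replicate 1 1262-fold with a 95% counting interval from 226 to 49860. Intervals given here are exact and cover counting error only. Col1a2 (chr6:4504814-4541544, plus strand), the alpha 2 chain, had 8, 873 and 301 counts, or 0.02, 1.86 and 0.70 TPM. Both type I chains were thus near absent from replicate 1 and higher in replicate 2 than in replicate 3.

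The ratio of the chains was not the same in replicates 2 and 3. Per length, Col1a1 stood to Col1a2 as 1.36 in replicate 2 and 1.83 in replicate 3. By CPM, replicate 2 exceeded replicate 3 1.89-fold for Col1a1 (interval 1.72 to 2.08) and 2.53-fold for Col1a2 (2.22 to 2.89), intervals that do not overlap. All counts of either gene were assigned to protein-coding transcripts, and each gene had 1 transcript with 100% of them.

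Col3a1 (chr1:45311538-45349706, plus strand), the only chain of type III collagen, which accompanies type I in skin and vessels, had 0, 769 and 313 counts, or 0, 2.03 and 0.77 TPM. Set against the floor of 3 counts, replicate 2 was 244-fold and replicate 3 114-fold higher than replicate 1, and the exact lower 95% counting limits of these ratios were 198 and 92.1. Sparc (chr11:55394500-55423183, minus strand) had 2, 347 and 119 counts, or 0.02, 1.91 and 0.87 TPM, and replicate 2 exceeded replicate 1 165-fold (interval 45.4 to 1369). Replicate 2 was again the highest, 2.14-fold above replicate 3 for Col3a1 (1.88 to 2.45) and 2.54-fold for Sparc (2.06 to 3.16). Col1a1, Col1a2, Col3a1 and Sparc together had 11, 3314 and 1345 counts. They made up 2.93% of the CPM of the 45 genes in replicate 1, 71.3% in replicate 2 and 59.4% in replicate 3. The remaining 41 genes summed to 7.16, 25.0 and 19.8 CPM, a narrower spread of 3.49-fold.

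The start regions of Col1a2 and Col3a1 are shown as examples from the genes with the most counts. They were read from the RefSeq promoter table on GRCm38.p6, 250 bases before to 50 bases after the start. Both lie on the plus strand, at chr6:4505368-4505667 and chr1:45311288-45311587. Capitals mark matches on either strand to CCAAT, the letters of the NF-Y box (ATTGG on the other strand), and to TATAAA, a form of the TATA box.
Col1a2: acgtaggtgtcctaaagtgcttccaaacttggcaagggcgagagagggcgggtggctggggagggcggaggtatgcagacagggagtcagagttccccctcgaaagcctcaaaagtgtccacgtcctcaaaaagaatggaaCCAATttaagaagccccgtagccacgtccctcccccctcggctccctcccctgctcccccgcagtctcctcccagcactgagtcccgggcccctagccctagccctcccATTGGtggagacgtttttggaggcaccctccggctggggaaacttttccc
Col3a1: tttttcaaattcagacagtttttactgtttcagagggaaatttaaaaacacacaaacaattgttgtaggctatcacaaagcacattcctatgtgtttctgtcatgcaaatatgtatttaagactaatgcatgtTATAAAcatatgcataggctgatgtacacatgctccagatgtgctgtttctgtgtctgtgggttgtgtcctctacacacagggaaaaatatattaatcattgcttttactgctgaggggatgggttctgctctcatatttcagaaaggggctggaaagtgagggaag

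CCAAT letters were found in the Col1a2 window at 2 places and TATAAA in the Col3a1 window at 1. The Sparc window held neither, and the table held no window for Col1a1. Of 32817 windows of 300 bases in the table, 37.4% held CCAAT and 13.6% held TATAAA. The table held 39 windows of 36 of the 45 genes, of which 13 held the first and 5 the second. A match describes the letters only.

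Type V and type XI chains, parts of minor collagens that limit the width of fibrils, divided into separate patterns. Col5a1 had 4, 197 and 77 counts and Col5a2 had 1, 186 and 125, so both chains of type V were near 0 in replicate 1. They differed between the other libraries: replicate 2 exceeded replicate 3 2.23-fold for Col5a1 (1.71 to 2.94) and 1.30-fold for Col5a2 (1.03 to 1.64). Col5a1 stood to Col5a2 as 0.812 by TPM in replicate 2 and 0.478 in replicate 3. Col5a3, the chain of type V that is less widely made, had 1, 5 and 0 counts, none on a coding transcript. Col11a1, a chain typical of cartilage, had 0, 79 and 17 counts, and replicate 2 exceeded replicate 3 4.05-fold (2.38 to 7.30). Its partner Col11a2 had 58, 50 and 50 counts, or 0.13, 0.17 and 0.21 TPM, and did not follow Col11a1: replicate 1 held 36.2% of its CPM and its libraries were not beyond counting error. Retained-intron transcripts took 0%, 9.5% and 11.7% of Col11a2 counts in replicates 1 to 3. Col27a1 had 3, 15 and 6 counts, of which 22.9% lay on coding transcripts and 43.7% on 1 retained-intron transcript. Col2a1, the main collagen of cartilage, had no count in any library, and Col24a1 had 3 counts in replicate 2 alone.

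The 11 fibrillar genes summed to 1.5, 65.6 and 32.3 CPM, a spread of 43.9-fold. No other collagen class with more than 3 genes spread as far: type VI spread 6.18-fold, type IV 2.90-fold, transmembrane collagens 2.56-fold and fibril-associated collagens 2.24-fold. The network collagens, a class of 3 genes, spread 19.0-fold on 2, 40 and 25 counts. Of the 76 fibrillar counts in replicate 1, 58 were of Col11a2, and the other 10 genes shared 18.

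**Figure D2:**
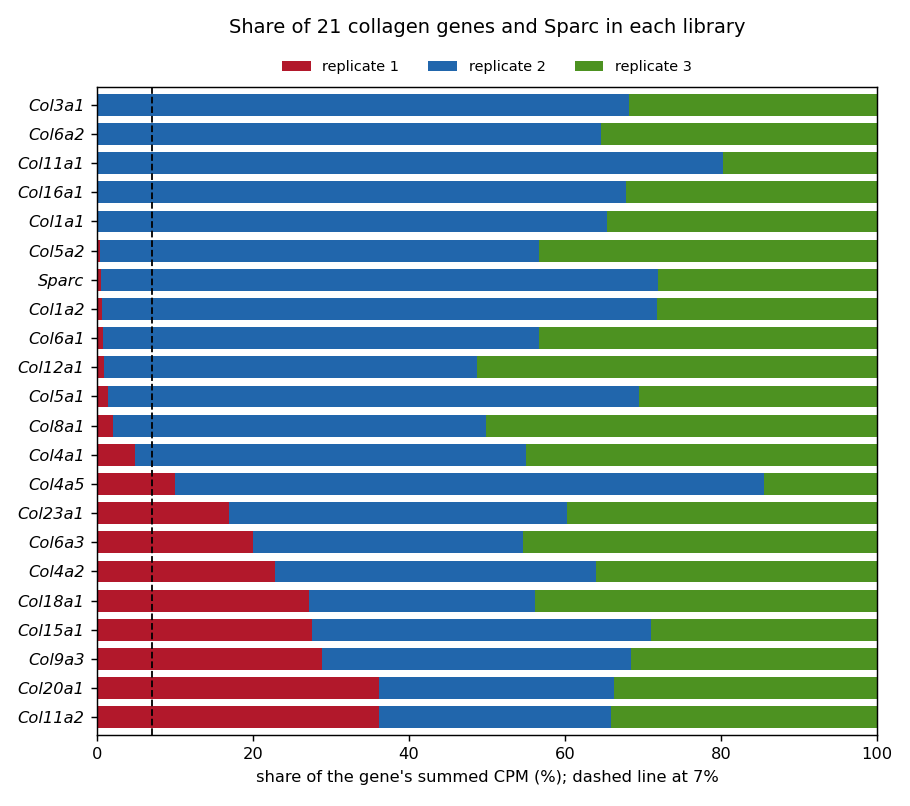
Share of each gene's CPM, summed over the 3 libraries, that came from each library (percent), for 21 collagen genes and Sparc with at least 30 counts in sum; the dashed line stands at 7%. Replicate 1 holds between 0% and 4.86% in the upper 13 genes and between 9.93% and 36.2% in the lower 9.

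Chains that form the same helix did not always share a pattern. Type IV alpha 1 and alpha 2 chains are products of neighbouring genes that start head to head, Col4a1 (chr8:11198423-11312826, minus strand) and Col4a2 (chr8:11312805-11449287, plus strand), whose annotated ends overlap by 22 bases. Col4a1 had 6, 65 and 51 counts, with 4.86% of its CPM in replicate 1. Col4a2 had 51, 97 and 74 counts, with 22.8% in replicate 1. Between replicates 2 and 3 neither differed beyond counting error by its interval (1.11-fold, 0.759 to 1.64, and 1.14-fold, 0.836 to 1.57). Only 40.6% of Col4a1 counts lay on coding transcripts: the coding share was 3.23% in replicate 2 and 91.2% in replicate 3, and over all libraries 50.3% of counts were assigned to 1 transcript annotated for nonsense-mediated decay. For Col4a2 99.2% lay on coding transcripts. Col4a5, the X-linked chain of kidney and other basement membranes, had 3, 24 and 4 counts. Col4a3, Col4a4 and Col4a6 had at most 6.12 counts in any library.

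Type VI showed the same division. Col6a1 had 1, 74 and 50 counts and Col6a2 had 0, 90 and 43, whereas Col6a3, the long chain that joins them, had 34, 62 and 71. Replicate 1 held 0.794% of Col6a1, 0% of Col6a2 and 19.9% of Col6a3. Replicate 2 exceeded replicate 3 1.83-fold for Col6a2 (1.26 to 2.69), whereas the intervals of Col6a1 (0.890 to 1.89) and Col6a3 (0.533 to 1.09) included 1. Col6a4, Col6a5 and Col6a6 had at most 1 count in a library.

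Among fibril-associated collagens, Col12a1, found in dense connective tissue, had 1, 60 and 56 counts, and Col16a1 had 0, 29 and 12. Both were near 0 in replicate 1. Col16a1 TPM was 0, 0.42 and 0.03, a wider gap between replicates 2 and 3 than its counts show, and 43.3% of its counts lay on coding transcripts, all in replicate 2. Col20a1 had 55, 48 and 47 counts and Col9a3 had 9, 13 and 9, and neither varied beyond counting error. Col20a1 overlaps an annotated gene of unknown function on the same strand with 190, 193 and 168 counts, by 741 bases, so its counts are uncertain. The strand setting is not given in the sources used here, so reads of genes that overlap on opposite strands cannot be told apart either.

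Multiplexins, basement-membrane collagens whose tails release endostatin-like fragments, were the most even class, at 2.17, 2.57 and 3.20 CPM. Col18a1 (chr10:77052178-77166548, minus strand) had 84, 94 and 124 counts, or 0.30, 0.22 and 0.36 TPM (0.293 ± 0.0702, SD, n = 3). It was highest in replicate 3, the library with the most nuclear RNA, and replicate 2 stood at 0.661 of replicate 3 (0.5 to 0.872). It overlaps Slc19a1, a folate carrier gene on the opposite strand, by 8825 bases, and Slc19a1 had 129, 142 and 174 counts, also highest in replicate 3. Col15a1 had 26, 43 and 25 counts and did not vary beyond counting error.

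Of the remaining classes, the network collagen Col8a1, made by endothelial and smooth muscle cells, had 1, 24 and 22 counts. The transmembrane collagen Col23a1 had 13, 35 and 28, with 16.9% in replicate 1. The other 22 genes had a mean under 10 counts in either set of tables. Of these, 13 had a count in the gene tables, at most 13 in any library (Col8a2, in replicate 2). In the second set of tables the highest estimated count among them was 19.0 (Col14a1, in replicate 2).

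Within the 13 genes nearly absent from replicate 1, replicate 2 was higher than replicate 3 in 11, and the counting interval of the ratio lay above 1 in 9. How many of all genes tested had such a ratio or interval was not counted. By the chi-square test on replicates 2 and 3 alone, 9 of 20 genes of the set varied beyond counting error, beside 51.6% of all genes tested. Among the 13, the ratios ran from 0.934 (Col12a1) to 4.05 (Col11a1). The interval of Col5a2 (1.03 to 1.64) lay below those of Col1a1, Col1a2, Col3a1, Col5a1, Sparc and Col11a1. The genes low in replicate 1 thus differed among themselves in this ratio by more than counting error. Of the other 9 genes, Col4a5 was higher in replicate 2 (5.23-fold, 1.80 to 20.8, on 24 and 4 counts), Col18a1 was lower, and 7 had intervals that included 1.

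**Figure D3:**
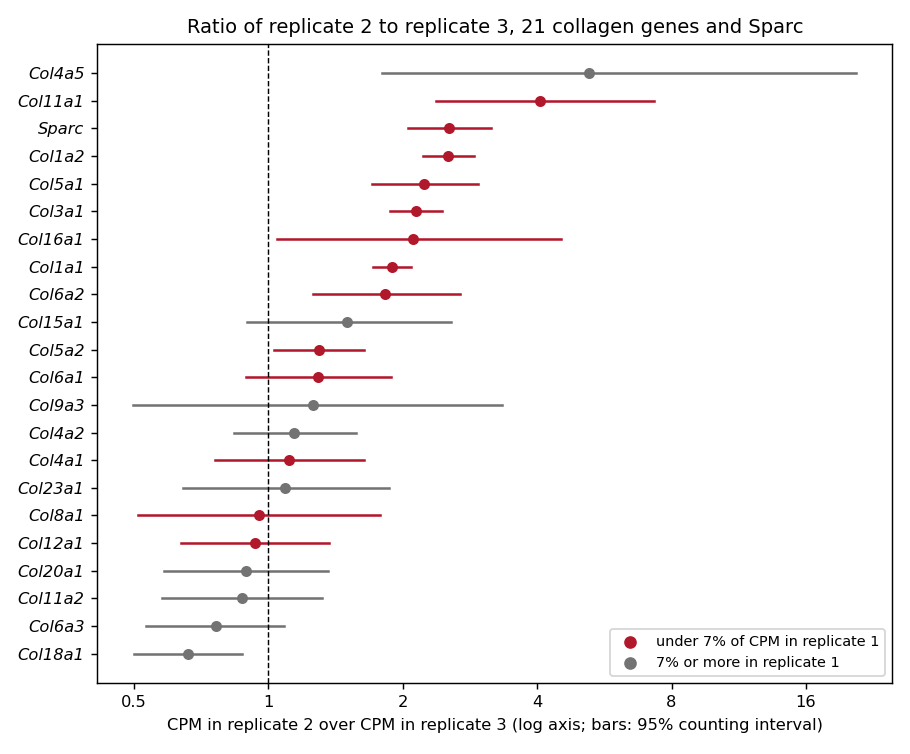
CPM in replicate 2 over CPM in replicate 3 for 21 collagen genes and Sparc (logarithmic axis), with 95% counting intervals as bars and a dashed line at 1; red marks genes with under 7% of their CPM in replicate 1. Red genes range from 0.934 (Col12a1) to 4.05 (Col11a1), and grey genes other than Col4a5 and Col18a1 have bars that cross 1.

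Genes of other cell types were read from lists, to show what moved beside the collagen genes. The lists were drawn up with earlier results of these data known, and they are described by counts only. Over all genes tested, 44.5% lay above 1 TPM and 50.4% below. Of 16 stromal and fibroblast genes other than collagens and Sparc, none lay above 1 TPM, 12 lay below, 3 were placed on neither side and Twist2 had no count. All 12 with at least 30 counts in sum varied beyond counting error, beside 69.3% of all genes tested. In 9 of these 12 replicate 1 held under 7% of CPM, beside 0.78% of all genes tested: Pdgfra, Dcn, Lum, Postn, Loxl1, Bgn, Fstl1, Prrx1 and Cxcl12. These 9 had 0 to 16 counts in replicate 1, so they too reached 30 counts through replicates 2 and 3. Postn (periostin), a matrix protein of fibroblasts and bone-lining cells, had 0, 237 and 104 counts, and Bgn (biglycan), a matrix proteoglycan, had 5, 205 and 71. Dcn (decorin), which coats collagen fibrils, had 3, 64 and 31, and the fibroblast receptor Pdgfra had 1, 27 and 4. These followed the library order of Col1a1.

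Not all stromal genes did. Fbn1 (fibrillin 1) had 314, 173 and 190 counts, with 45.8% of its CPM in replicate 1, and Igfbp7 had 42, 51 and 74, highest in replicate 3. Pdgfrb had 14, 37 and 35 and Thy1 had 1, 5 and 11, both highest in replicate 3 by CPM. Fap had 5, 0 and 4 counts and Mfap5 had 0, 0 and 2. The list summed to 1.33, 5.0 and 3.13 TPM, a narrower range than that of the collagen genes. In replicate 1, 0.43 of the 1.33 TPM came from Fbn1 and 0.62 from Igfbp7. The part of the list in the collagen values was not tested.

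Genes of more specialised makers of matrix were mostly at or near 0. Of 10 osteoblast and chondrocyte genes, 7 had no count in any library of the gene tables, among them Sp7, Bglap, Ibsp, Alpl and Acan, which define bone-forming and cartilage cells. In the second set of tables Sp7 had 4.84, 3.86 and 0 estimated counts, and the other 6 had none. Sox9 had 0, 4 and 3 counts and Comp had 6, 3 and 4. Runx2, a transcription factor needed for bone formation, had 196, 242 and 181 counts and did not vary beyond counting error. Of 6 smooth muscle genes none lay above 1 TPM. Acta2 had 20, 74 and 44 counts and Tagln 23.1, 43.6 and 44.0, lowest in replicate 1 with 14.4% and 20.5% of CPM, Cnn1 had 1 in each library, and Rgs5 and Des had none.

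The 4 endothelial genes with at least 30 counts in sum had other library orders than Col1a1. Kdr, a receptor for vascular growth factor, had 5.73, 2.47 and 2.36 TPM, highest in replicate 1, and Vwf had 2.66, 3.20 and 1.90. Both were called above 1 TPM by limma, of 8 on the list. Neither was called in the second set of tables, where Kdr had a mean of 1.52 TPM. Kdr also lost its call without replicate 2, at a mean of 4.045 TPM. Pecam1 had 211, 118 and 236 counts, Tek 0, 0 and 1, and Emcn 1 in each. Adipocyte genes Adipoq, Plin1, Lep and Cfd had no count, and Fabp4 (50.2, 48.3 and 24.7 TPM) and Pparg (6.17, 7.22 and 5.26), which macrophages also make, lay above 1 TPM. No endothelial, adipocyte or macrophage gene tested had under 7% of its CPM in replicate 1. Of the macrophage genes, Lyz2 had 4300, 3169 and 3107 TPM, Lgals3 830, 818 and 513, and Mpeg1 823, 596 and 737.

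Of 19 genes that fold, modify or cross-link collagen, 8 lay above 1 TPM, beside 44.5% of all genes tested. They were led by P4hb (68.4, 72.6 and 67.9 TPM), Plod1 (50.1, 42.4 and 44.98) and Plod3 (29.6, 22.8 and 23.0). These modify collagen and, for P4hb, many other secreted proteins. Lox, a collagen cross-linking oxidase, lay above 1 TPM as well, with 1483, 1144 and 959 counts. A further 7 lay below, beside 50.4% of all genes tested. P4ha2, Serpinh1 and Bmp1 were placed on neither side, and Adamts2 had 3 counts in replicate 2 alone. In 5 of the 17 with at least 30 counts replicate 1 held under 7% of CPM, beside 0.78% of all genes tested. These 5 reached 30 counts through replicates 2 and 3. Serpinh1, the chaperone Hsp47 that is dedicated to procollagen, had 7, 161 and 126 counts. Fkbp10 had 0, 20 and 17, Pcolce 6, 88 and 52, Loxl1 1, 32 and 12, and Loxl2 0, 17.9 and 17.6. All 5 were lowest in replicate 1, while the 8 genes above 1 TPM ranged from 29.8% to 41.0% in replicate 1. The remaining 4 lay at 12.1% (Plod2), 26.4% (P4ha2), 26.7% (Bmp1) and 31.3% (P3h1, below 1 TPM).

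Of 10 genes for collagen receptors and uptake, Itgb1, the common beta chain of collagen-binding integrins, Lair1, an inhibitory collagen receptor of leukocytes, and Mrc1, an endocytic receptor of macrophages, lay above 1 TPM at means of 81.3, 49.5 and 19.6. Ddr2, the fibrillar collagen receptor of mesenchymal cells, had 0, 70 and 14 counts, and Mrc2, a collagen uptake receptor of fibroblasts, had 0, 63 and 22. Itga11, another fibroblast receptor chain, had 2 counts in replicate 2 alone. Of 12 genes of the TGF-beta pathway, a main inducer of collagen genes in stromal cells, 7 lay above 1 TPM and 4 below. The shares over all genes tested, to be set beside both lists, were 44.5% above and 50.4% below. Tgfb1 had 107, 110 and 107 TPM, Tgfbr2 28.8, 21.1 and 25.4, and Tgfbi 18.3, 15.0 and 19.6, none in the order of Col1a1. Ccn2, a matrix gene that TGF-beta induces, had 3, 28 and 2 counts, high in replicate 2 alone.

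**Figure D4:**
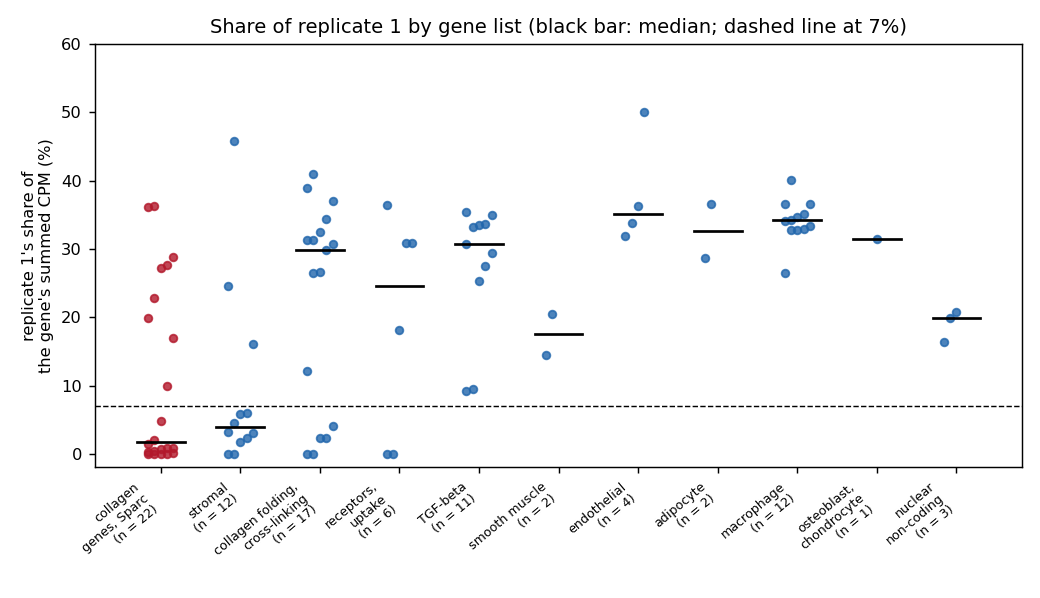
Share of each gene's summed CPM that came from replicate 1 (percent), for genes whose counts summed to 30 or more, by list; each point is 1 gene, the black bar is the median and the dashed line stands at 7%. The median is 1.77% for the collagen genes and Sparc and 3.86% for stromal genes, against 34.2% for macrophage genes and 32.2% over all genes tested.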

How the data were processed

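Per the file headers and the deposited notes, every library came with 1 table of genes and 2 of transcripts, made on mm10 with GENCODE M21. Expected counts per gene were deposited by the authors, and were rounded to whole numbers for the noise test and for DESeq2 factors. TPM values were deposited by the authors to 2 decimals, per the file headers, so ratios of low TPM are coarse. A second set of transcript tables with estimated counts and TPM of its own, deposited by the authors, was summed to genes as an alternative. The sources used here give no aligner, quantification tool or strand setting. The percent of a gene assigned to each transcript was deposited by the authors, per the file headers, but transcript shares were computed here from transcript counts. All 55536 genes matched the annotation, which gave coordinates. Control and tRNA entries, 0.0772% to 0.378% of counts, were left out.

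The collagen genes, the companion lists and the tests were chosen with earlier results of these data known. Levels were fitted with limma 3.58.1 in R 4.3.3 on log2(TPM + 1) against 1 TPM, with robust variances that follow the mean, on genes above 0 TPM in a library; the pseudocount compresses differences among low genes. Benjamini-Hochberg adjusted p under 0.05 was the threshold. The noise test was a chi-square test (2 degrees of freedom) against library totals on genes whose counts summed to 30 or more. CPM divided expected counts by the total over genes. Ratios have exact Clopper-Pearson 95% intervals from counts, and a count of 0 was set at 3 counts. Intervals and floors cover counting error only. Both tests were tested on simulated data before use. Genes named were those with a mean of at least 10 counts in either set of tables, up to 3 highest per companion list and those whose call differed between the sets; all others were chosen after their values were seen. Alternatives were a pseudocount of 0.1, a filter at a mean of 10 counts, other count minimums, the second tables, TPM rescaled to protein-coding genes of the nuclear genome, TMM factors (edgeR 4.0.16), size factors (DESeq2 1.42.0) and leaving out each replicate. Motifs, repeats and shared 50-base stretches were found by exact matching. Untreated cells were not analysed here.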

Additional observations from a re-analysis of the deposited data

Results flagged for a closer look

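Col22a1, Col25a1 and Col26a1 had no expected count in any library of the gene tables, but the second set of tables, which was used above only as an alternative and to choose genes to name, gave them estimated counts of up to 7.43, 10.5 and 9.30 in a library. Each is above the limit of 3 counts that a count of 0 allows. Of these counts, 100% lay on coding transcripts for Col22a1 and 0% for Col25a1 and Col26a1. Col22a1 is a collagen of tissue junctions, and Col25a1 is a membrane collagen of neurons. In Col26a1, 1.85% of 50-base stretches were shared with other genes. The cause of the difference between the tables was not tested.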

How the results depend on the processing

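No paired analysis was possible because all libraries belong to 1 group. With 1 group, a level or a spread can be described, but no effect of lipid A. No collagen gene and not Sparc was called above 1 TPM by limma under any alternative run. Means did exceed 1 TPM without a call, up to 4.47 for Col1a1 when rescaled over coding genes. The number below 1 TPM was 29 of 33 tested, against 18 of 22 with a filter at a mean of 10 counts, and 22 to 36 under the others. The filter took genes out of the test, and every gene it kept had the same call. The 36 came from the second tables, where some genes listed at 0 TPM in the gene tables also entered. Summed TPM was 6.48, against 22.6 when rescaled over coding genes, 3.21 in the second tables and 3.76 to 9.12 on leaving out 1 library, lowest without replicate 2. Highest over lowest library by summed TPM was 9.93 and ranged from 1.89 (without replicate 1) to 9.93 on leaving out 1 library, with 5.27 without replicate 2. Of 22 genes tested 18 varied beyond counting error, against 20 of 27 at a minimum of 10 counts, 9 of 20 without replicate 1, 14 of 17 without replicate 2 and 14 of 18 without replicate 3. In these settings 69.3%, 63.7%, 51.6%, 51.3% and 53.9% of all genes did. The 13 genes under 7% in replicate 1 were also 13 in the second tables, with TMM or DESeq2 factors and at a line of 5%, and were 14 at 10%, alternatives added after seeing the data. They were 9 and 10 of those tested without replicate 2 and without replicate 3. Endothelial genes called above 1 TPM were 2, against 0 in the second tables and 1 without replicate 2. Mean TPM crossed 1, or the direction of its log2 mean turned, without a call for Col1a1 (1.27 with a pseudocount of 0.1, 0.676 in the second tables, 0.64 to 1.91 on leaving out 1 library, with 1.26 without replicate 3), Col1a2 (3.01 rescaled, 0.36 to 1.28 on leaving out 1 library), Col3a1 (3.27, 0.385 to 1.4) and Sparc (3.27, 0.445 to 1.39), each highest without replicate 1. The same held, rescaled over coding genes, for Postn (1.75), Bgn (1.67), Tagln (1.06) and Serpinh1 (2.03), and for Vwf (0.952, second tables) and P4ha2 (0.895 without replicate 2 to 1.05 without replicate 1). Igfbp7 (2.52), Runx2 (2.07), Pecam1 (2.63) and P4ha2 (3.33) were called above 1 TPM by limma when rescaled. Tagln and Vwf lost their calls in this way. Of gene-level results 432 kept direction and side of the threshold and 21 turned direction, as listed. With direction kept, 14 gained a call and 12 lost one. Rescaling took the call below 1 TPM from Col5a1, Col5a2, Col18a1, Col6a2, Col4a1, Col15a1 and Col16a1. Before rescaling, 34.5%, 29.0% and 27.5% of all TPM in replicates 1, 2 and 3 fell on the coding genes used for it. Rescaling set this part to the full total, so it raised the TPM of each such gene in every library. Levels set against 1 TPM thus depend on how much non-coding and mitochondrial RNA is in the total. The cause of the other changes was not tested.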

Other observations

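Other genes had under 7% of their summed CPM in replicate 1, and those named here were chosen after their values were seen, so they stand for no gene group. The line was passed by 102 of 13075 genes, of which 84 are protein-coding and 13 are collagen genes or Sparc. Of the 84, 71 were higher in replicate 2 than in replicate 3, and the share over all genes tested was not counted. Fn1 (fibronectin) had 19, 453 and 212 counts in replicates 1, 2 and 3, and the matrix genes Fbln2 and Thbs2 had 1, 160 and 63 and 2, 81 and 48. Igfbp5, which binds insulin-like growth factors, had 0, 200 and 85, and Ptn (pleiotrophin) had 0, 103 and 53.

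Igf2, a growth factor gene, had 7, 397 and 170 counts, and its neighbour H19, a non-coding RNA, had 1, 347 and 109. Both are known as imprinted, expressed from 1 parental copy, as are Grb10 (0, 73 and 51), Peg3 (0, 30 and 25) and Rian (0, 22 and 33). By CPM, replicate 2 stood to replicate 3 as 2.04, 2.78, 1.25, 1.05 and 0.58 in these 5 genes, so Rian was higher in replicate 3. Fosb, an immediate early gene, had 29, 584 and 98 counts, and the mitochondrial mt-Co3 had 6.49, 973 and 6968, highest in replicate 3. What these genes share was not tested.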
